A study of Mus musculus with 2 samples.

Results

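The genes described here are 7 interferon-inducible GTPase genes of the mouse, 4 guanylate-binding proteins (Gbp2, Gbp3, Gbp5 and Gbp7) and 3 immunity-related GTPases (Igtp, Irgm1 and Irgm2). They form a list of named interferon-gamma-responsive genes that uses no measured value, and all 7 were among the 32285 features of both count matrices. The study profiled single cells from hearts of male wild-type C57BL/6J mice, 8 weeks old, after 60 min of occlusion of the left anterior descending coronary artery and 24 h of reperfusion. One group had its spleen removed and the other had a sham operation. The title of 1 library carries a splenectomy code, and the other library, which has none, was taken as the sham group. Both groups underwent the same infarction, so no uninjured heart is among the comparisons. CD45+ cells were taken from the hearts with magnetic beads, and each group is 1 library, with the number of hearts in it not given in the sources used here. Because each group is 1 library, no difference between them could be tested against the variation between animals. Every interval below is at 95% and covers counting error only. Those of levels and ratios take each UMI as independent, so the spread between cells is not in them.

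Guanylate-binding proteins (GBPs) and immunity-related GTPases (IRGs) are among the most strongly interferon-gamma-induced proteins of mouse cells. Interferon-gamma binds a receptor of Ifngr1 and Ifngr2 chains, and the kinases Jak1 and Jak2 pass the signal to gamma-activated sites (GAS) in target promoters. Irf1 is induced in this way, and its protein binds interferon-stimulated response elements (ISRE) in GBP and IRG promoters. Type I interferon reaches the same elements through a complex that contains IRF9. The proteins coat vacuoles that hold intracellular bacteria and parasites, and several GBPs act upstream of inflammasomes. Irgm1, Irgm2 and Igtp belong to the regulatory IRGs, which sit on host membranes and keep the effector IRGs such as Iigp1 inactive there.

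The 4 GBP genes lie together on chromosome 3 and the 3 IRG genes on chromosome 11 (mm10, GENCODE vM21 annotation). In order along the plus strand these are Gbp5 (ENSMUSG00000105504, chr3:142493978-142522344), Gbp7 (ENSMUSG00000040253, chr3:142530342-142550149), Gbp3 (ENSMUSG00000028268, chr3:142560026-142573209) and Gbp2 (ENSMUSG00000028270, chr3:142620602-142638008). The gaps between neighbours were 7997 bases from Gbp5 to Gbp7, 9876 from Gbp7 to Gbp3 and 47392 from Gbp3 to Gbp2. Irgm1 (ENSMUSG00000046879) is on the minus strand at chr11:48861968-48871683. Igtp (ENSMUSG00000078853, chr11:58199556-58207591) and Irgm2 (ENSMUSG00000069874, chr11:58199618-58222782) are on the plus strand, and their gene models overlap by 7974 bases on the same strand, so reads in the shared stretch could not be given to 1 of the 2 genes by position alone. The 2 models end apart, and the assay reads the 3' ends of transcripts. Over the last 500 bases of every annotated transcript, the longest run identical to another family gene was 34 bases, between Gbp3 and Gbp4. Between Gbp2 and Gbp4 it was 23 bases. For the other 5 genes it was 12 to 14 bases.

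What the 7 genes shared in sequence was an ISRE-type match in the promoter. The letters GAAA, then any 2 bases, then GAAA again, searched on both strands from 250 bases before to 50 bases after the RefSeq start (GRCm38.p6), were found in 7 of 7 members, against 3.99% of 27025 genes and 3.44% of 32851 promoters of the same length. The GAS-type letters TTCNNNGAA were found in 4 of 7 members (Gbp5, Gbp7, Igtp and Irgm2), against 9.55% of genes and 8.30% of promoters. Windows around the ISRE-type matches are shown from RefSeq, 5′ to 3′ on the strand of the gene, with the match in capitals, since the match is the feature that all 7 have in common. In Gbp3 and Irgm1 the capitals cover 2 overlapping matches. The 4 GBP windows are chr3:142620574-142620643 (Gbp2), chr3:142559969-142560038 (Gbp3), chr3:142496739-142496808 (Gbp5) and chr3:142530253-142530322 (Gbp7), all on the plus strand. The IRG windows are chr11:58199492-58199555 on the plus strand (Igtp), chr11:48871421-48871480 on the minus strand (Irgm1) and chr11:58214883-58214952 on the plus strand (Irgm2).
Gbp2: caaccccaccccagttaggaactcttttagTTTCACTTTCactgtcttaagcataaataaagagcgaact
Gbp3: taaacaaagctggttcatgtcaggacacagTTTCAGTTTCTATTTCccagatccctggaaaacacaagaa
Gbp5: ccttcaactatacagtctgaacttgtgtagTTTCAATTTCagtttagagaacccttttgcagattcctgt
Gbp7: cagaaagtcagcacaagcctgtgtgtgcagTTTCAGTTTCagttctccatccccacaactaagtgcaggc
Igtp: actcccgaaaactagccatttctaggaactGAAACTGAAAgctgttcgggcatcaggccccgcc
Irgm1: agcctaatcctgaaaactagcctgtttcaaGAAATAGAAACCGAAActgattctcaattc
Irgm2: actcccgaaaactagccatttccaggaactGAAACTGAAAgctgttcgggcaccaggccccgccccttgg

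In the GBP windows the match was on the strand opposite to the gene, and in the IRG windows on the same strand. Its first base was between 64 and 24 bases before the start in 6 members and 165 bases before it in Gbp5. The RefSeq starts of Gbp2, Gbp3, Gbp5, Irgm1 and Irgm2 lie inside their GENCODE gene models. The Irgm2 window lies past the end of the Igtp model. The promoters of Igtp and Irgm2 were nearly alike, with 247 of 264 aligned bases identical (93.6%). The next most alike pair, Gbp3 and Gbp7, had 186 of 242 identical (76.9%). A second RefSeq start of Gbp3 had no ISRE-type match in its window. These matches are letters in a window, and the files hold no binding data.

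**Figure D1:**
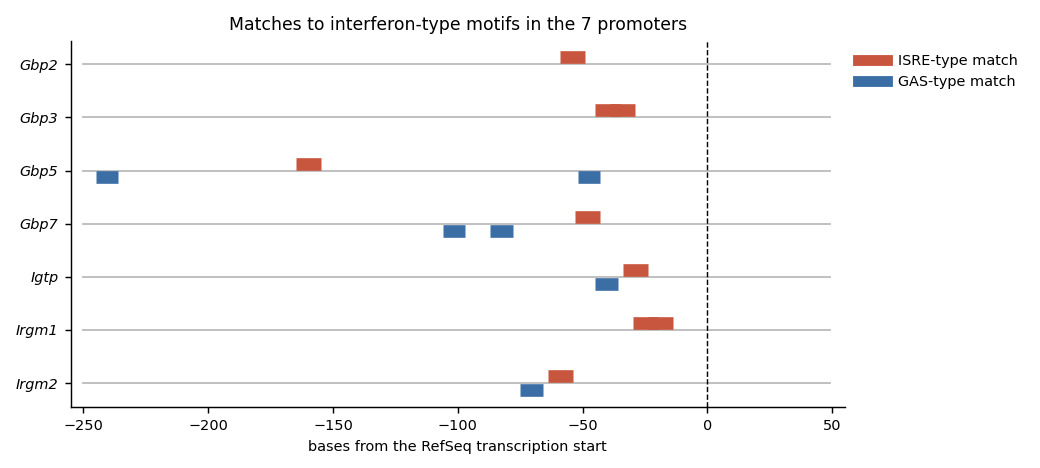
Position of each motif match in the 7 member promoters, in bases from the RefSeq transcription start (dashed line at 0), with ISRE-type matches in red and GAS-type matches in blue. Every line carries a red bar, which ends before the start, and the Gbp5 bar is the farthest from it.

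The sham library held 6210 barcodes and 53512625 UMIs (unique molecular identifiers, counted here as transcripts), and the splenectomy library 5087 barcodes and 48024013 UMIs. After filters, 5838 and 4805 cells were analysed, with medians of 4994 and 7219 UMIs per cell, and 9 barcodes occurred in both libraries. Cells were assigned to a class by the UMIs of marker genes, each class is called by its markers ("neutrophil-like"), and 11.6% and 9.53% of cells fitted no class well enough. The 8 classes with at least 50 cells in both libraries were neutrophil-like (2295 cells sham, 1594 splenectomy), monocyte-like (1564 and 1731), macrophage-like (796 and 565), nonclassical monocyte-like (91 and 59), conventional dendritic cell-like (77 and 83), B cell-like (104 and 110), T cell-like (63 and 72) and endothelial-like (84 and 75). Ptprc, which encodes CD45, had a UMI in 67.3% to 100% of the cells of each leukocyte class but in 4 of 84 and 4 of 75 endothelial-like cells, so the endothelial-like class does not match the label of the sort. Levels are CPM, the UMIs of a gene per 1000000 UMIs of its class and library. Each UMI is 1 tagged 3' end, so CPM does not scale with transcript length.

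Over all analysed cells the 7 members together made up 150 CPM (147 to 154) in sham and 83.4 CPM (80.8 to 86.1) after splenectomy, and the log2 ratio was -0.85 (-0.91 to -0.79). Of the members, 6 were lower after splenectomy with intervals that did not include 0, from Gbp2 at -1.13 to Gbp7 at -0.54. Gbp5 was the exception, at 5.51 CPM and 4.80 CPM (log2 ratio -0.20, -0.47 to 0.06).

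The summed level differed more between cell classes than between libraries. In the sham library the endothelial-like cells were highest at 721 CPM (644 to 804), followed by T cell-like cells at 273 (220 to 336), neutrophil-like at 235 (225 to 246), nonclassical monocyte-like at 195 (162 to 231), macrophage-like at 157 (149 to 165) and monocyte-like at 127 (122 to 132). Conventional dendritic cell-like cells at 73.7 CPM (59.3 to 90.6) and B cell-like cells at 45.6 (27.5 to 71.2) were lowest. The intervals of T cell-like and neutrophil-like cells overlapped, as did those of neutrophil-like and nonclassical monocyte-like cells, of nonclassical monocyte-like and macrophage-like cells, and of the 2 lowest classes, so the order within these pairs is not set by the counts. The span from lowest to highest was 15.8-fold.

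In the splenectomy library the endothelial-like cells were again highest, at 333 CPM (282 to 391), but their interval overlapped that of the T cell-like cells at 305 (250 to 369). Below them came neutrophil-like cells at 145 CPM (136 to 155), nonclassical monocyte-like at 110 (80.8 to 146), macrophage-like at 95.2 (88.4 to 102), B cell-like at 72.5 (51.1 to 100), monocyte-like at 62.5 (59.3 to 65.8) and conventional dendritic cell-like at 26.5 (17.9 to 37.9). Natural killer cell-like cells, with 62 and 27 cells, fell short of the minimum of 50 and are given as levels only, 130 CPM (97.0 to 170) and 151 CPM (94.9 to 229).

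**Figure D2:**
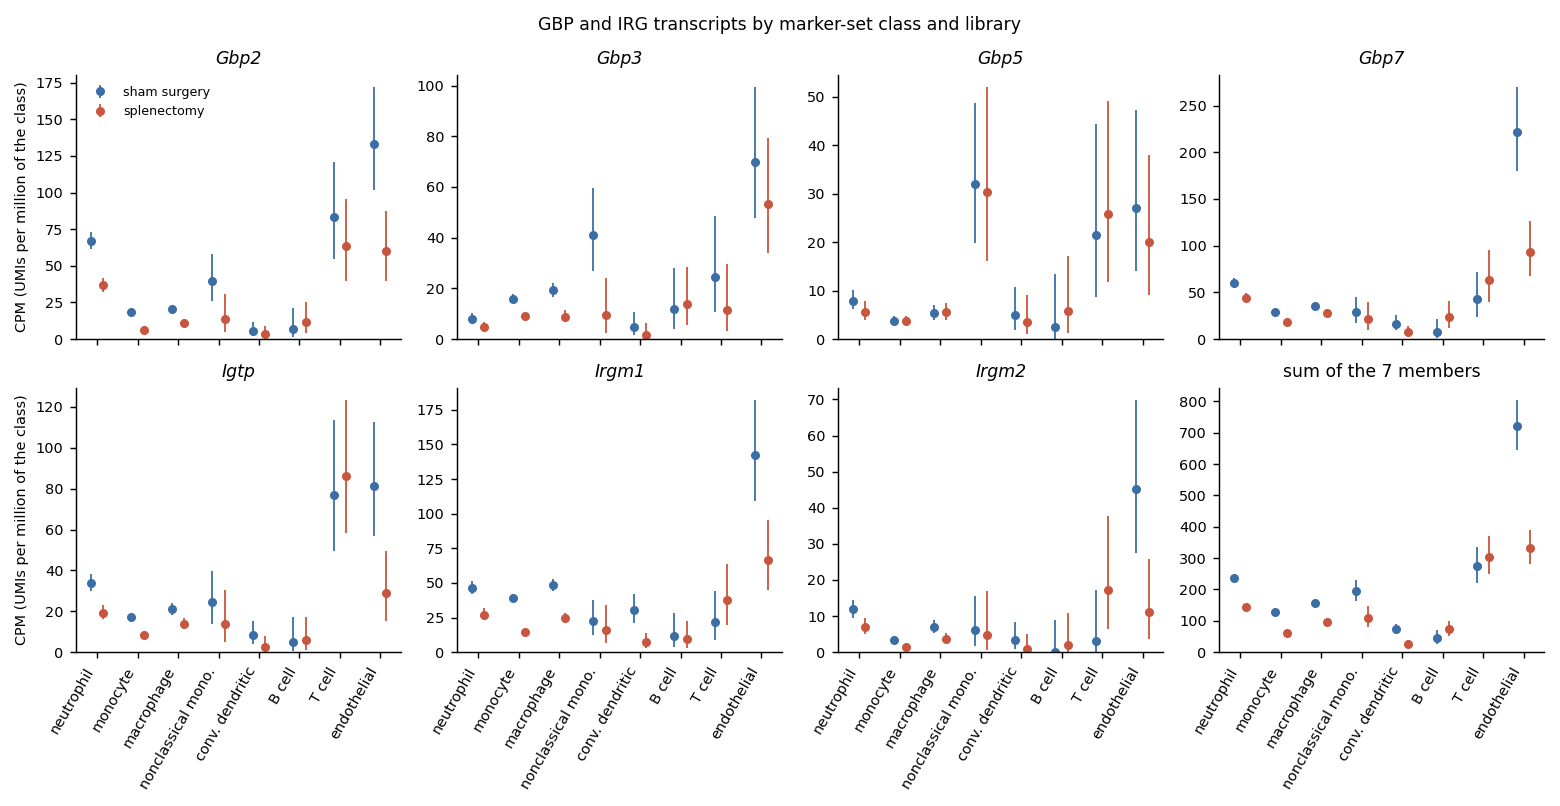
Level of each member and of their sum in CPM of the class total, by marker-set class, in the sham (blue) and splenectomy (red) libraries, with exact Poisson intervals. Endothelial-like cells sit highest in the sum. Gbp5 is highest in nonclassical monocyte-like cells, with an interval that overlaps that of the next class in both libraries. In the 3 classes at the left the blue points lie above the red ones for the 6 members other than Gbp5.

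In sham neutrophil-like cells Gbp2 gave 28.5% of the member UMIs and Gbp7 25.5%, with Irgm1 at 19.8%. In sham monocyte-like and macrophage-like cells Irgm1 led, with 30.8% in both, before Gbp7 with 23.0% and 22.5%. After splenectomy Gbp7 led in all 3 of these classes, with 30.5% in neutrophil-like, 30.2% in monocyte-like and 29.4% in macrophage-like cells, and Irgm1 gave 23.3% and 25.9% in the last 2. In sham, T cell-like cells had most of Gbp2 (30.3%) and Igtp (28.1%) and little Irgm1 (7.87%). The nonclassical monocyte-like cells of the same library spread their UMIs over Gbp3 (21.1%), Gbp2 (20.3%) and Gbp5 (16.4%), and Gbp5 was at 3.01% to 7.87% in the other sham classes. Irgm2 gave at most 6.27% in any sham class and had 0 UMIs in B cell-like cells there, which allows up to 7.20 CPM (3 UMIs).

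In neutrophil-like cells all 7 members had a lower level after splenectomy, and 5 of 7 were at least 1.5-fold lower with at least 50 UMIs in the library with the higher level. By the same rule 8.22% of the 6118 genes that could be tested were lower and 3.07% higher, with 0 members higher. Of the 5, Gbp3 and Irgm2 reached 50 UMIs in the sham library alone, as Irgm2 did in the monocyte-like and macrophage-like cells below. Gbp2, a prenylated GBP that coats bacteria and parasite vacuoles, went from 67.0 CPM (61.5 to 72.8) to 36.8 CPM (32.2 to 41.8), a log2 ratio of -0.86 (-1.09 to -0.64). Gbp2 intervals of the 2 libraries did not overlap. Igtp, a regulatory IRG of the endoplasmic reticulum, went from 33.8 to 19.3 CPM (-0.80, -1.12 to -0.49). Irgm1, a regulatory IRG known for its role in mycobacterial infection, went from 46.6 to 27.2 CPM (-0.78, -1.04 to -0.51). The ratios of these 2 IRGs lay inside the interval of Gbp2. The rarer Gbp3 was at 7.93 and 4.72 CPM (-0.75, -1.42 to -0.10) and Irgm2 at 11.8 and 7.08 CPM (-0.74, -1.29 to -0.22).

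The 2 members of neutrophil-like cells that missed the 1.5-fold limit were Gbp7 and Gbp5. Gbp7, known for its part in the assembly of the phagocyte oxidase, was at 60.0 CPM (54.8 to 65.6) and 44.2 CPM (39.2 to 49.7), a log2 ratio of -0.44 (-0.66 to -0.23). Gbp5, known as a promoter of NLRP3 inflammasome assembly, was at 7.93 and 5.66 CPM (-0.49, -1.12 to 0.12), and its intervals overlapped. The median log2 ratio was -0.75 over the 7 members and -0.09 over the 8917 genes with at least 20 UMIs. The sum of the members went from 235 to 145 CPM, -0.70 (-0.81 to -0.58).

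The neutrophil-like class was not made of the same clusters in both libraries. A cluster led by Hcar2, Il23a and Csf1 held 1124 of 2295 cells of the class in sham and 567 of 1594 (35.6%) after splenectomy, while one led by Retnlg and Stfa2l1 held 14.7% and 42.0%. Within the first cluster the summed members were at 286 and 167 CPM (log2 ratio -0.77, -0.94 to -0.60). Within the second they were at 150 and 118 CPM (-0.35, -0.60 to -0.09), and in another, led by G0s2 and Mmp9, at 207 and 170 CPM (-0.28, -0.53 to -0.04). All 3 ratios were below 0, with the last 2 nearer to 0 than in the class as a whole. Split by UMIs per cell into 4 bins of equal size, bin 3 gave -0.12 (-0.34 to 0.10) against -1.0, -0.56 and -1.07 in the others.

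Monocyte-like cells had the lowest summed ratio of the 3 large classes. Of the 7 members, 6 were at least 1.5-fold lower after splenectomy, where 3.66% of 9227 genes were, and 0 were higher, where 2.3% of genes were. Gbp2 went from 18.3 CPM (16.5 to 20.3) to 6.35 CPM (5.36 to 7.47), 2.89-fold lower with a log2 ratio of -1.53 (-1.81 to -1.25). Irgm1 went from 39.1 CPM (36.5 to 41.9) to 14.5 CPM (13 to 16.2), a log2 ratio of -1.43 (-1.62 to -1.24). Irgm2, a regulatory IRG of the Golgi, went from 3.44 to 1.31 CPM (-1.40, -2.07 to -0.76) and Igtp from 17.3 to 8.57 CPM (-1.01, -1.27 to -0.76). For Gbp2 and all 3 IRGs the intervals of the libraries lay apart.

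Gbp3 in monocyte-like cells was at 15.8 and 9.05 CPM (-0.80, -1.06 to -0.55). Gbp7 was at 29.2 and 18.8 CPM (-0.63, -0.82 to -0.45), close to the 1.5-fold limit, and passed it in 9 of 11 alternative settings. Gbp5 had the same level in both libraries, 3.83 CPM (3.03 to 4.77) and 3.83 CPM (3.07 to 4.72), with an interval of the log2 ratio from -0.46 to 0.46. Over 11 alternative settings the log2 ratio of Gbp5 ran from -0.61 to 0.24, and 1 setting passed the 1.5-fold limit. The GBPs of these cells ranged from a log2 ratio of -1.53 to 0.00. The median over the 7 members was -1.01, beside -0.01 over 11284 genes, and the sum of the members went from 127 to 62.5 CPM (-1.02, -1.12 to -0.93). The ratio of the sum was -1.08 within the cluster led by Il6, Inhba and Ccl24 and -1.27 within the cluster led by Mgst1, Ly6c2 and Chil3. It was -0.92 in the cluster led by Retnla and Ear2 and -0.53 (-0.69 to -0.36) in the one led by Ppbp, Fabp5 and Pf4. The latter held 18.9% and 11.3% of the class. Cluster ratios cover all cells of a cluster, whatever their class. Monocyte-like cells were 231 of 458 and 204 of 357 cells in the Retnla cluster. In the Ppbp cluster they were 296 of 708 and 195 of 408. Within the monocyte-like cells alone, the ratio of the sum lay between -1.17 and -0.66 in the 4 bins of UMIs per cell.

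In macrophage-like cells 5 of the 6 members with enough UMIs were at least 1.5-fold lower, where 2.49% of 8345 genes were, and 0 were higher, where 2.64% of genes were. Gbp3 was lowest by ratio, at 19.4 CPM (16.8 to 22.3) and 8.90 CPM (6.91 to 11.3), a log2 ratio of -1.12 (-1.54 to -0.72). Irgm1 went from 48.3 CPM (44.1 to 52.8) to 24.6 CPM (21.2 to 28.4), -0.97 (-1.22 to -0.73). Gbp2 was at 20.3 and 10.9 CPM (-0.90, -1.29 to -0.53). These 3 members had library intervals that did not overlap. Irgm2 was at 6.96 and 3.66 CPM (-0.92, -1.61 to -0.27) and Igtp at 21.2 and 13.6 CPM (-0.64, -0.99 to -0.29), and with every cell given the same weight 3 members, not 5, passed the limit. Gbp7 stayed inside the limit at 35.2 and 28.0 CPM (-0.33, -0.58 to -0.08).

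Gbp5 again did not differ detectably in macrophage-like cells, with 5.37 and 5.50 CPM (0.03, -0.58 to 0.64). Over 11 alternative settings the log2 ratio of Gbp5 ran from -0.43 to 0.88 there. Its highest library had 54 UMIs, but the higher level was that of the splenectomy library with 42 UMIs, which kept it out of the count. The median over the 7 members was -0.90, beside 0.02 over 10842 genes, and the sum went from 157 to 95.2 CPM (-0.72, -0.85 to -0.59). In the cluster led by Lyve1 and Folr2 the sum was at 237 and 106 CPM (-1.16, -1.32 to -1.0), and this cluster held 51.9% and 62.1% of the class. In the cluster led by Ppbp, Fabp5 and Pf4, which held 31.3% and 22.7%, the sum was at 84.8 and 58.8 CPM over all its cells. The ratio was -0.53 (-0.69 to -0.36), inside the 1.5-fold limit, and is the value already given with the monocyte-like cells. Of the cells in that cluster, 249 of 708 and 128 of 408 were macrophage-like. In bin 3 of UMIs per cell the ratio was -0.15 (-0.37 to 0.07), and in the other bins -1.61, -0.78 and -0.90.

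**Figure D3:**
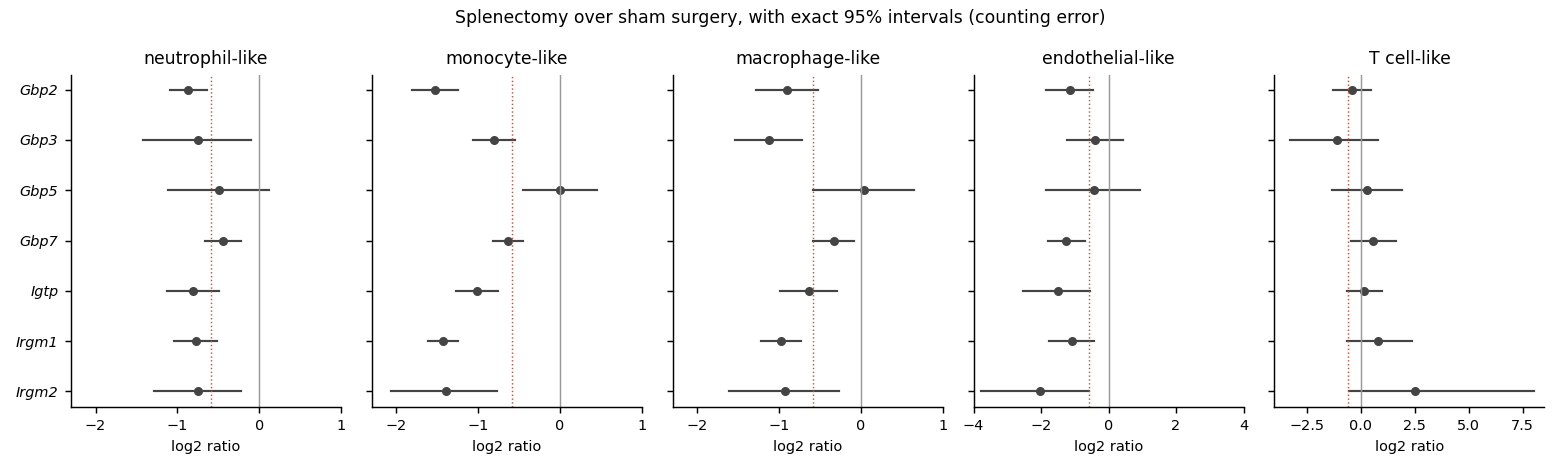
Log2 ratio of each member, splenectomy over sham, in 5 classes, with exact intervals; the grey line marks 0, the dotted red line 1.5-fold lower, and the x axes differ between panels. Gbp5 sits at 0.00 in monocyte-like and 0.03 in macrophage-like cells while Gbp2, Igtp, Irgm1 and Irgm2 lie to the left of the dotted line, and the T cell-like intervals all include 0.

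Among the smaller classes, the endothelial-like cells combined the highest levels with a summed log2 ratio of -1.11, near that of the monocyte-like cells. Of the members, 3 of 3 with enough UMIs were at least 1.5-fold lower, where 6.71% of 1670 genes were, and 0 were higher, where 5.45% of genes were. All 3 reached the minimum of 50 UMIs in the sham library alone, so this count says nothing beyond their values. Gbp7 went from 221 CPM (180 to 270) to 93.3 CPM (67.2 to 126), a log2 ratio of -1.25 (-1.80 to -0.71). Irgm1 was at 142 and 66.6 CPM (-1.09, -1.77 to -0.45) and Gbp2 at 133 and 60.0 CPM (-1.15, -1.87 to -0.47). All 3 had intervals of counting error that lay apart in the 2 libraries, from 84 and 75 cells.

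With fewer UMIs, Igtp in these cells was at 81.3 and 28.9 CPM (-1.49, -2.53 to -0.54) and Irgm2 at 45.2 and 11.1 CPM (-2.02, -3.79 to -0.57). Gbp3 at 70.0 and 53.3 CPM and Gbp5 at 27.1 and 20 CPM had intervals of the ratio that included 0. The endothelial-like cells also held neutrophil markers, 10 of 11 of them at a summed 1710 CPM in sham and 8 of 11 at 311 CPM after splenectomy, with Stfa2l1 at 0 in both. Macrophage markers summed to 429 and 1086 CPM there, fibroblast markers to 31.6 and 298, erythroid markers to 113 and 11.1, and T cell markers to 45.2 and 2.22 CPM, and the part of these in the ratio was not tested. In cells with at most 2 neutrophil marker UMIs (57 and 56 cells), the sum of the members was at 840 and 324 CPM. The log2 ratio there was -1.38 (-1.79 to -0.98), beside -1.11 (-1.40 to -0.83) in all endothelial-like cells. That limit was set on neutrophil markers alone.

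Nonclassical monocyte-like cells had no member with 50 UMIs. The sum of the members was at 195 and 110 CPM (-0.82, -1.34 to -0.33). The 11 neutrophil markers summed to 3341 and 1106 CPM in these cells, and their part in the ratio was not tested. Gbp3 was at 41.0 CPM (27.0 to 59.7) and 9.36 CPM (2.55 to 24.0), a log2 ratio of -2.13 (-4.11 to -0.61), and Gbp2 at 39.5 and 14.0 CPM (-1.49, -3.06 to -0.18). Gbp5, which had its highest level here, was at 31.9 CPM (19.8 to 48.8) and 30.4 CPM (16.2 to 52.0), with an interval of the ratio too wide to bound it (-1.19 to 1.0). The next class was endothelial-like in sham, at 27.1 CPM (14.0 to 47.4), and T cell-like after splenectomy, at 25.9 CPM (11.8 to 49.2). These intervals overlapped, so the counts do not set the rank of Gbp5 here. The other 4 members had 2 to 19 UMIs a library and intervals that included 0. In conventional dendritic cell-like cells the sum was at 73.7 and 26.5 CPM (-1.47, -2.12 to -0.86), and Irgm1 alone had an interval below 0, at 30.3 and 7.07 CPM (-2.10, -3.41 to -0.97). Gbp7 was at 16.4 and 7.07 CPM (-1.21, -2.60 to 0.03), and the other 5 members had 1 to 10 UMIs in each library, all with fewer after splenectomy.

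In the lymphocyte classes no direction was established. T cell-like cells had a sum of 273 CPM (220 to 336) in sham and 305 CPM (250 to 369) after splenectomy, a log2 ratio of 0.16 (-0.26 to 0.58). Igtp was their most frequent member after splenectomy, at 76.8 CPM in sham and 86.4 CPM after splenectomy (0.17, -0.65 to 1.0), and Gbp2 was at 83.0 and 63.3 CPM (-0.39, -1.27 to 0.48). Gbp7 was at 43.0 and 63.3 CPM, Irgm1 at 21.5 and 37.4, Gbp5 at 21.5 and 25.9, Gbp3 at 24.6 and 11.5, and Irgm2 at 3.07 and 17.3 CPM from 1 and 6 UMIs. All 7 intervals included 0, and the class had 89 and 106 member UMIs. The sign of the summed ratio was not stable either, at -0.27 with cells thinned to 2000 UMIs, -0.07 (-0.75 to 0.63) in the 31 and 38 cells with at most 2 neutrophil marker UMIs, and 0.59 under a stricter marker rule. The 11 neutrophil markers summed to 1211 and 694 CPM in the T cell-like cells. B cell-like cells had 19 and 37 member UMIs, 45.6 and 72.5 CPM (0.67, -0.17 to 1.55), so no difference was detectable in them at this depth. Their most frequent members were Gbp7 with 3 and 12 UMIs, Gbp3 with 5 and 7, and Irgm1 with 5 and 5. In B cell-like cells the 11 neutrophil markers summed to 533 and 1372 CPM and the macrophage markers to 1560 and 1182 CPM. The part of these in the ratio was not tested.

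The difference was also present as a share of cells. With each cell thinned to 2000 UMIs and shallower cells left out, 20.1% of monocyte-like cells (18.1% to 22.3%) had a UMI of any member in sham and 10.7% (9.29% to 12.4%) after splenectomy. The shares were 24.5% and 17.8% in neutrophil-like cells, 24.8% and 16.2% in macrophage-like cells, and 64.2% (51.3% to 76.3%) and 42.8% (29.8% to 57.7%) in endothelial-like cells. The 2 libraries had intervals apart in the first 3 classes, and overlapping ones in the endothelial-like cells. For comparison, B cell-like cells had 7.61% (2.98% to 14.4%) and 8.53% (4.16% to 16.2%) at the same depth, with medians of 3530 and 3696 UMIs before thinning. The part of free RNA in any of these shares was not tested. The share of monocyte-like cells after splenectomy lay within the intervals of the B cell-like cells, and that of conventional dendritic cell-like cells was 12.8% and 5.28%. Without thinning the shares were 57.9% and 38.6% in monocyte-like cells and 59.7% and 50.6% in macrophage-like cells, at medians of 11609 to 13087 UMIs, and 33.7% and 27.4% in neutrophil-like cells, at medians of 3312 and 3744 UMIs. Thinning left out 248 and 121 neutrophil-like, 130 and 123 monocyte-like, and 81 and 46 macrophage-like cells.

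At 2000 UMIs per cell, a depth below their medians, few cells of the 3 largest classes held several members at once. As a mean of 20 draws, 3.47% of sham monocyte-like cells and 1.33% after splenectomy had 2 or more different members. In neutrophil-like cells this was 6.96% and 3.51%, and in macrophage-like cells 5.38% and 2.60%. Endothelial-like cells stood higher, with 37.7% and 16.4% for 2 or more members and 18.0% and 3.58% for 3 or more. Cells with any member UMI held on average 1.89 and 1.66 of them in neutrophil-like, 1.32 and 1.25 in monocyte-like and 2.67 and 1.77 in endothelial-like cells.

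**Figure D4:**
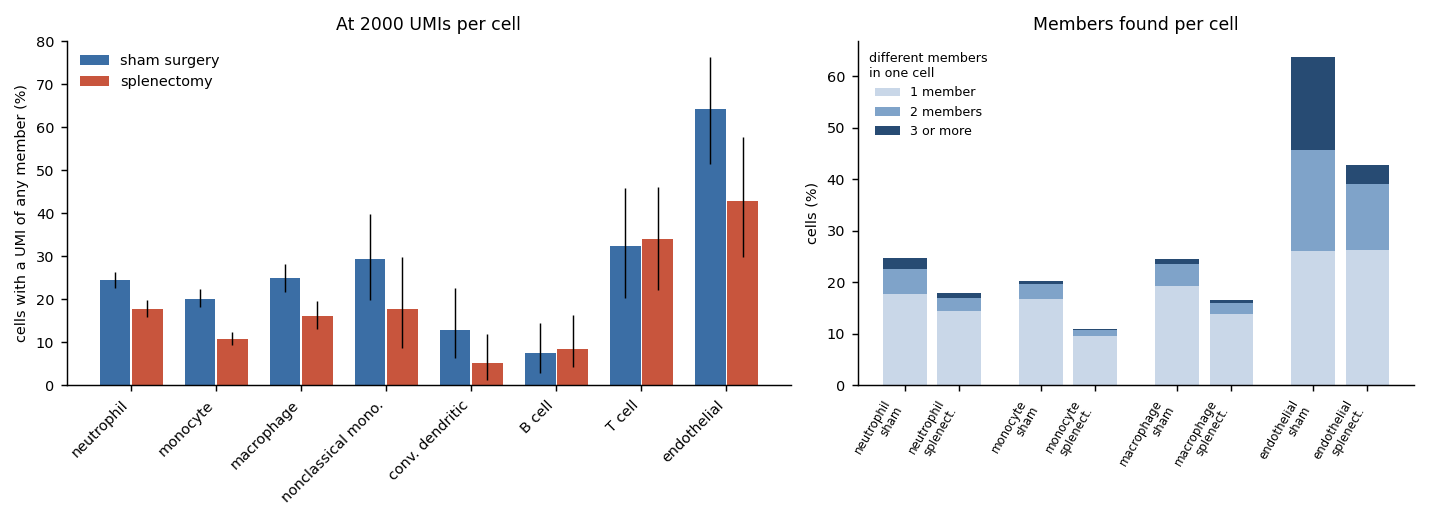
Left, percent of cells with a UMI of any member at 2000 UMIs per cell, by class and library, with exact binomial intervals; right, percent of cells with 1, 2 or at least 3 different members, as a mean of 20 thinning draws. The red bars are shorter than the blue ones in 6 of 8 classes, and of the 4 classes at the right the endothelial-like cells have the tallest dark segment, 18.0% in sham and 3.58% after splenectomy.

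Interferon-gamma itself was found in few cells. Of 80 Ifng UMIs in sham and 33 after splenectomy, 46 and 23 were in natural killer cell-like cells, in 20 of 62 and 14 of 27 cells, and 6 and 7 in T cell-like cells. Per class total that was 115 CPM (84.2 to 153) and 158 CPM (100 to 238) in natural killer cell-like and 18.4 and 20.1 CPM in T cell-like cells. Natural killer cell-like cells made up 1.06% and 0.562% of the cells. Monocyte-like cells had 0 Ifng UMIs in both libraries, which allows up to 0.145 and 0.131 CPM (3 UMIs). The Ifng intervals of the 2 libraries overlapped within natural killer cell-like cells, while the whole library held fewer Ifng UMIs after splenectomy.

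Of the list of ligand, receptor and kinase genes, 0 of 4 testable genes were past 1.5-fold in either direction in each of the 3 largest classes. Of all testable genes 8.22% were lower in neutrophil-like, 3.66% in monocyte-like and 2.49% in macrophage-like cells. In the same order 3.07%, 2.3% and 2.64% were higher, so 0 of 4 does not set these genes apart. Ifngr1, the ligand-binding chain, was at 148 and 168 CPM in monocyte-like cells and at 116 and 117 CPM in macrophage-like cells. Ifngr2, the signalling chain, was at 104 and 99.8 CPM in monocyte-like and at 97.9 and 94.6 CPM in macrophage-like cells. Jak1 had a log2 ratio of 0.05 and -0.06 in these 2 classes, and Jak2 one of 0.48 and 0.05. Medians of this list were 0.00 in neutrophil-like, 0.12 in monocyte-like and -0.02 in macrophage-like cells.

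Of the transcription factors, Irf1 was at 49.6 and 34.3 CPM in monocyte-like (log2 ratio -0.53, -0.67 to -0.40), 107 and 88.2 CPM in macrophage-like (-0.28) and 177 and 126 CPM in neutrophil-like cells (-0.49). These ratios were inside the 1.5-fold limit in all 3 classes. Nonclassical monocyte-like cells had 243 and 93.6 CPM of Irf1, endothelial-like cells 343 and 287 CPM. Irf9 was at -0.50 and -0.60 in monocyte-like and macrophage-like cells, the feedback inhibitor Socs1 at -0.36 and -0.53, Irf8 at -0.34 and -0.14 and Irf2 at -0.12 and -0.13.

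Of the other GBPs, Gbp6 was at 3.93 and 1.35 CPM in monocyte-like (-1.54, -2.19 to -0.93) and 6.06 and 2.88 CPM in macrophage-like cells (-1.07, -1.85 to -0.35). Gbp9 was at 9.26 and 5.09 CPM in monocyte-like (-0.86), 9.34 and 5.50 CPM in macrophage-like (-0.76) and 24.8 and 10.7 CPM in neutrophil-like cells (-1.21). These were 2 of 2 testable genes in monocyte-like, 2 of 2 in macrophage-like and 1 of 1 in neutrophil-like cells. In the same classes 3.66%, 2.49% and 8.22% of all testable genes were lower. Gbp6 in monocyte-like and macrophage-like cells, and Gbp9 in macrophage-like cells, reached the minimum of UMIs in the sham library alone. For these the count says nothing beyond their values. Of the other IRGs, 2 of 2 were lower in monocyte-like, 3 of 5 in macrophage-like and 1 of 1 in neutrophil-like cells. The effector IRGs Iigp1 (26.1 and 12.2 CPM, -1.10) and Tgtp2 (6.06 and 1.96 CPM, -1.63) and the family gene Gm4951 (14.8 and 9.16 CPM, -0.69) were the 3 in macrophage-like cells. There, 9930111J21Rik2 (-0.39) and Gm5431 (-0.28) stayed inside the limit, and in monocyte-like cells the same genes were at -0.78 and -1.16. Tgtp2 has a near-identical neighbour, Tgtp1, so its count is uncertain. In macrophage-like cells Tgtp2 also reached the minimum of UMIs in the sham library alone. In endothelial-like cells Iigp1 was at 678 and 320 CPM (-1.08, -1.38 to -0.79).

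Other interferon-gamma targets had 4 of 11 testable genes at least 1.5-fold lower in monocyte-like, 6 of 11 in macrophage-like and 3 of 9 in neutrophil-like cells, and 0 higher. Of all testable genes 3.66%, 2.49% and 8.22% were lower in the same classes, and 2.3%, 2.64% and 3.07% higher. Cxcl9, a chemokine for activated T cells, was at 2.42 and 0.0435 CPM in monocyte-like cells, where the second value is a single UMI (log2 ratio -5.80, -11.13 to -3.26), and at 5.07 and 1.96 CPM in macrophage-like cells (-1.37, -2.31 to -0.51). In endothelial-like cells it was at 289 and 42.2 CPM (-2.78, -3.55 to -2.07). Next by ratio were Psmb9 of the immunoproteasome at -0.92 and the peptide transporter gene Tap1 at -0.86 in monocyte-like cells, and the class II transactivator gene Ciita at -1.15 and Nlrc5 at -0.86 in macrophage-like cells. At the upper end were Tap2 (-0.39), Cxcl10 (0.12) and Cd274 (0.16) in monocyte-like cells and Psme1 (-0.35), Tap2 (-0.34) and Psme2 (-0.29) in macrophage-like cells. Medians were -0.49 and -0.64.

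Of the targets known mainly for type I interferon, 9 of 10 genes were at least 1.5-fold lower in each of the 3 classes, and 0 higher. Of all testable genes 8.22% were lower in neutrophil-like, 3.66% in monocyte-like and 2.49% in macrophage-like cells. The medians of the list were -1.02, -1.08 and -0.96 in the same order. The lowest in monocyte-like cells were Rsad2 (103 and 36.2 CPM, -1.50), Irf7 (305 and 120 CPM, -1.34) and Usp18 (-1.21), and the highest Isg15 (-0.46), Ifit1 (-0.79) and Oasl2 (-1.03). In macrophage-like cells Cmpk2 (-1.34), Ifit3 (-1.21) and Ifit1 (-1.05) were lowest and Isg15 (-0.35), Oasl2 (-0.67) and Rsad2 (-0.77) highest. The members, at medians of -0.75, -1.01 and -0.90 in the same order of classes, lay between these medians and those of the other interferon-gamma targets (-0.46, -0.49 and -0.64).

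Most partners of the GTPases had ratios inside the 1.5-fold limit. Of the 8 inflammasome genes, Il18 (39.7 and 23.1 CPM, -0.78) was lower and Il1b (4207 and 6876 CPM, 0.71) higher in monocyte-like cells, and Casp1 (59.2 and 38.1 CPM, -0.64) was lower in macrophage-like cells. In neutrophil-like cells 2 of 8 were lower, Aim2 (-0.78) and Il18 (-0.68), where 8.22% of all testable genes were. Casp1 (-0.48) and Aim2 (-0.31) in monocyte-like cells and Gsdmd (-0.23) and Aim2 (-0.19) in macrophage-like cells stayed inside the limit, as did Nlrp3 (0.30 and 0.02) and Pycard (0.09 and -0.11) in both, and Il1b was at 0.04 in macrophage-like cells. Another list held genes that target GBPs and IRGs to vacuoles through the autophagy conjugation system, or that handle their lipid anchors. It had 0 of 10 past 1.5-fold in neutrophil-like, 0 of 11 in monocyte-like and 0 of 11 in macrophage-like cells. Of all testable genes 8.22%, 3.66% and 2.49% were lower in the same classes, and 3.07%, 2.3% and 2.64% higher. A count of 0 therefore does not set this list apart. Toward the lower end were Atg12 (-0.25) and Atg7 (-0.10) in monocyte-like and Atg7 (-0.22), Atg3 (-0.22) and Map1lc3b (-0.14) in macrophage-like cells. Toward the upper end were Sqstm1 (0.18), Atg16l1 (0.10) and Atg5 (0.08) in monocyte-like and Pggt1b (0.40) and Atg16l1 (0.20) in macrophage-like cells.

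**Figure D5:**
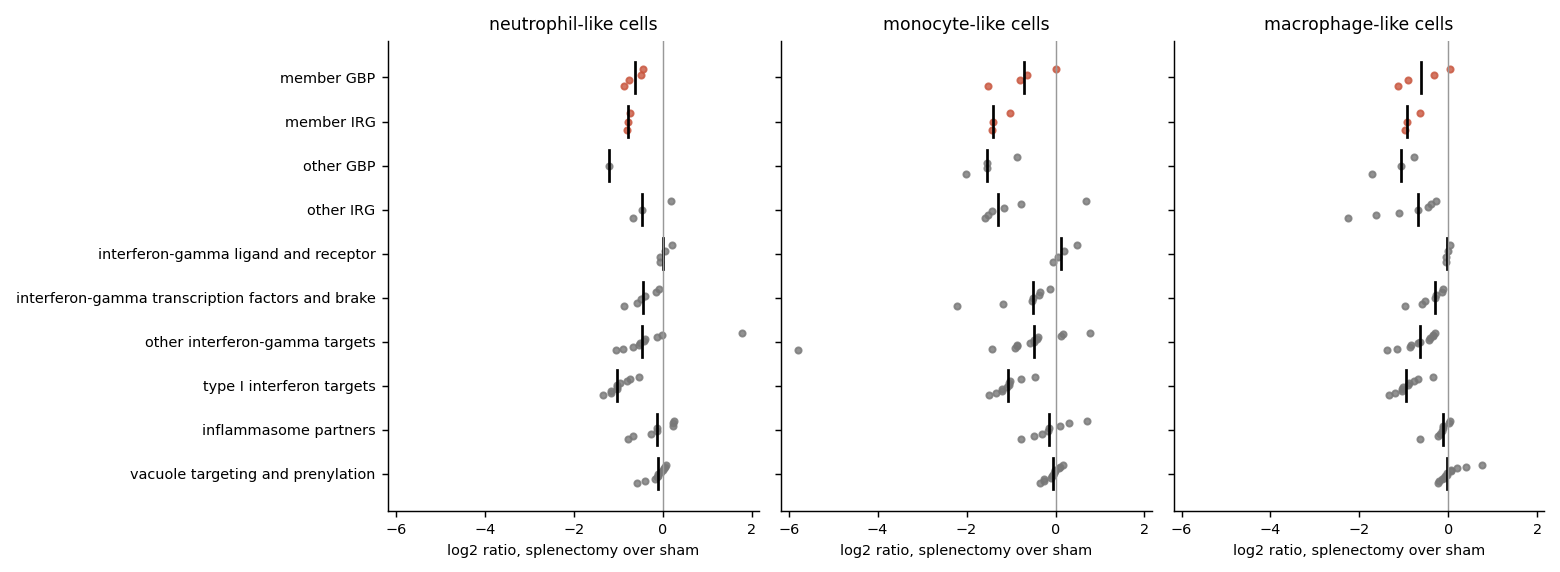
Log2 ratio, splenectomy over sham, of the members (red) and of the other listed genes with at least 20 UMIs (grey points), by list, in 3 classes; the black bar is the median of a list. The type I interferon targets and the other GBPs have medians of -1.08 and -1.54 in monocyte-like cells, the neutrophil-like bar of the other GBPs is the single gene Gbp9, and the vacuole targeting genes centre at -0.11, -0.05 and -0.03.

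Markers of other cells also differed between the libraries within these classes. The 7 natural killer markers summed to 46 UMIs (5.61 CPM) in sham and 6 (0.944 CPM) after splenectomy in neutrophil-like cells, to 135 (6.54 CPM) and 16 (0.696 CPM) in monocyte-like cells, and to 128 (12.7 CPM) and 5 (0.654 CPM) in macrophage-like cells. Most sham UMIs were of Gzma, 40, 120 and 107, and the number of markers found was 3 and 1, 6 and 3, and 7 and 3 of 7. Ncr1, Klrb1c, Eomes and Prf1 were at 0 in neutrophil-like cells of both libraries. Cells with 0 UMIs of these markers were 2281 of 2295, 1542 of 1564 and 783 of 796 in sham, and in them the ratio of the summed members was -0.70, -1.02 and -0.73. With so few cells left out this does not bear on the part of such RNA in the ratio, which was not tested. The neutrophil markers in monocyte-like cells, all 11 found, were at 1000 CPM in sham and 2570 CPM after splenectomy, led by S100a8, and their part in the ratio there was not tested.

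Across the 8 classes of both libraries, 16 points in all, the members followed one another unevenly. The Pearson r between log2 levels of a member and of the sum of the other 6 was 0.93 for Gbp2, 0.92 for Gbp7 and Igtp, 0.89 for Irgm2 and 0.80 for Irgm1, and 0.69 for Gbp3 and Gbp5. The points share libraries and class depth, so the values are descriptive. Among 5309 genes with enough UMIs, the 8 with the highest r to the summed members were Notch1 (0.90), Gsk3b (0.89), Anp32a (0.89), Cdk17 (0.87), Itpkb (0.87), Kat5 (0.87), Ubn1 (0.87) and Znrf1 (0.86).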

How the data were processed

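The 2 matrices of UMI counts per gene and barcode were used as the authors deposited them. Per the labels' protocols the libraries are Chromium Single Cell 3' v3, and per the submitters' processing notes and the file headers they were made with Cell Ranger 5.0.0 on mm10; no source used here gives the annotation. Cells with under 200 genes or over 20% mitochondrial UMIs were left out (32 and 58 sham barcodes, 26 and 72 splenectomy barcodes). Doublets were scored with Scrublet in scanpy 1.11.5 and the top 8 per 1000 for each 1000 cells removed (302 and 200 cells; its own threshold called 169 and 83). A cell took the class of its highest mean marker score if at least 2 markers were found and the lead exceeded 0.05; 415 and 245 cells lay near that limit. Counts were summed per class and library and divided by the class total (CPM), with exact Poisson intervals and exact conditional intervals of ratios; no test was run. A gene was called at 1.5-fold with at least 50 UMIs in the library with the higher level, and medians used genes with at least 20 UMIs over both libraries. Shares at 2000 UMIs are expected values under thinning, with Clopper-Pearson intervals at the rounded count. For clusters, 2000 variable genes without the listed genes, 30 components, 15 neighbours and Leiden resolution 1.0 were used. Likeness used log2(CPM + 1). The method was tested on simulated Poisson counts, the model that the intervals assume, with no spread between cells or libraries. This checks the calculation only, and 95.3% to 95.6% of intervals held the true ratio. Named were all 7 members in every class, the 3 highest and 3 lowest ratios per list in monocyte-like and macrophage-like cells, Ifng, Ifngr1, Ifngr2 and Irf1, and the 8 genes most alike; values in neutrophil-like and endothelial-like cells of listed genes beyond this were added after they were seen. Some genes that this rule names are not reported here. The members and lists were chosen with earlier results of these data known.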

Additional observations from a re-analysis of the deposited data

Results flagged for a closer look

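The summed members were higher after splenectomy in B cell-like cells (log2 ratio 0.67, from 19 and 37 UMIs) and in T cell-like cells (0.16, from 89 and 106 UMIs), opposite in direction to all cells together (-0.85). The difference between these classes and the others was not tested, since each group is 1 library, and the interval of both ratios includes 0. Neutrophil markers were at 533 and 1372 CPM in B cell-like and 1211 and 694 CPM in T cell-like cells. Their part in the ratios was not tested.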

How the results depend on the processing

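No paired analysis was possible because each group is 1 library. In neutrophil-like, monocyte-like, macrophage-like, nonclassical monocyte-like, conventional dendritic cell-like and endothelial-like cells the summed ratio stayed below 0 under each of the alternatives run, and no scaling moved the median of all genes by more than 0.09. The summed log2 ratio of monocyte-like cells was -0.84 as a mean over cells and -1.14 with classes taken from clusters, that of macrophage-like cells -1.19 with clusters (median of the members -1.39), and that of endothelial-like cells -0.68 without doublet removal. T cell-like cells gave -0.27 thinned, and 0.59 both with the stricter marker rule and with clusters, where cluster 11 also holds natural killer cells. Thinned to 2000 UMIs, the members past 1.5-fold were 3 in neutrophil-like, 2 in monocyte-like, 2 in macrophage-like and 0 in endothelial-like cells, of 4, 3, 2 and 0 with enough UMIs (6.79%, 3.77%, 4.16% and 7.94% of all genes), and the monocyte-like median was -0.72. At 2-fold they were 0 in neutrophil-like and 1 in macrophage-like cells (1.62% and 0.431% of genes). As a mean over cells, 3 members passed 1.5-fold in macrophage-like cells (4.19% of genes). In endothelial-like cells 5 of 6 passed with at least 20 UMIs (11.7% of genes) and 5 of 7 with no minimum (26.6%). Unthinned, the share of cells with a member after splenectomy was 0.667 times that of sham in monocyte-like and 0.848 times in macrophage-like cells. Added after seeing the data, 4 bins of UMIs per cell gave -1.0, -0.56, -0.12 and -1.07 in neutrophil-like, -0.66, -1.17, -0.90 and -1.15 in monocyte-like, and -1.61, -0.15 and -0.90 in bins 1, 3 and 4 of macrophage-like cells. Also added, single clusters gave -1.27 (monocyte-like), -0.28 and -0.35 (neutrophil-like) and -1.16 (macrophage-like). The cause of these shifts was not tested, except that thinning leaves fewer genes with enough UMIs. Clusters gave no value for nonclassical monocyte-like and conventional dendritic cell-like cells. Of 498 alternative values of single members, 14 moved by more than their interval, among them Gbp5. Few UMIs limit Gbp5 and Irgm2 and the lymphocyte classes.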
